A study of Paeonia lactiflora with 8 samples.

Results

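Among the small RNAs listed for the herbaceous peony Paeonia lactiflora, 22 of 270 different mature sequences carry a name that starts with PC, which ties them to no miRBase entry. They were chosen by that name alone, 1 per sequence. The deposited column legend describes a group of reads that matched no miRBase hairpin of the selected species but lay in genome sequence able to fold into a hairpin, and the PC names are taken here to be that group. The hairpins and their genome positions were not analysed here. The libraries came from fruit at the young fruit period and from root, flower and leaf at the blossom period, with 2 libraries of each tissue. The labels name the species and no cultivar, treatment or genotype, and the series text calls the libraries of a tissue biological replicates without saying whether they came from separate plants. Tissue and stage cannot be told apart for fruit. The series set these tissues side by side because they differ in paeoniflorin, the monoterpene glucoside of peony.

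Plant miRNAs are cut by DICER-LIKE1 from the stem of a folded precursor as a short duplex with small 3′ overhangs. One strand is loaded into an ARGONAUTE protein, usually AGO1, which favours a 5′ U, and guides the cleavage or repression of matching transcripts. The other strand, the star strand, is mostly degraded, and recovery of both strands of a duplex is a usual criterion for annotating a miRNA that is known from a single species. Lineage-specific miRNAs are often weakly expressed, and their targets are often unknown. No target of the 22 was measured here.

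In the table, 18 of the 22 sequences stood as 9 neighbouring entries with 1 from the 5p arm and 1 from the 3p arm. The arms of 6 of these pairs are shown first because the abundance and tissue results turn on them. The sequences are printed 5′ to 3′ as deposited, with T for U and with the seed, bases 2 to 8, in capitals.
PC-5p-97_25693: tGACGGAGagagagagcacac
PC-3p-859_3455: tGTGCTCTccctcttcgtcag
PC-5p-39162_114: gTTGCTATtatgctgttgttt
PC-3p-96_26140: cAACCGCAtagtagcaacccg
PC-5p-433_6258: aTTCAGACaaccagagcaagg
PC-3p-122_21043: tTGCTCTGgtttctttgaattc
PC-5p-3586_985: tCGATCCAttcttcgatcgct
PC-3p-503_5584: cGGTGGAAgaatggattcgggg
PC-5p-58724_76: aTCGTTTTaagctttttcatt
PC-3p-1283_2426: cGAAAAAGcttgaaatgaaga
PC-5p-18231_232: tCTAACCCtttggataatgcga
PC-3p-66688_67: gCATAATCcaagggttggacg

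The neighbours could be laid out as the strands of a duplex. Arms listed from a predicted hairpin are likely to pair in this way, so the pairing is a description and no test of the prediction. Laid against each other without a gap, 8 of the 9 pairs had at least 15 paired bases, G:U pairs included, with at most 4 mismatches. PC-5p-97_25693 and PC-3p-859_3455 paired at 19 bases with 1 mismatch, PC-5p-101623_42 and PC-3p-67384_66 at 18 with 1, and PC-5p-58724_76 and PC-3p-1283_2426 at 17 with 0. The pair outside the limit, PC-5p-3812_938 and PC-3p-2538_1328, reached 14 bases. Each strand of the 9 pairs ended in a 3′ overhang of 1 to 3 bases. Among the 111 other ways to set a 5p against a 3p sequence of the 22, only 1 met the same limit. Some pairings with entries outside the 22 and some of 5p with 5p members also met it. The 22 seeds all differed from each other.

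The PC names did not mean that a sequence was foreign to every known family of the table. PC-3p-66695_67 contained, base for base, the whole 21-nt sequence listed as ath-miR408-3p_L-1R+1_2ss12CT15CT, with 1 base more at the 3′ end. Its neighbour PC-5p-52165_86 shared a run of 18 bases with ptc-MIR408-p5_2ss12CA19AG, from the opposite arm of a miR408 hairpin. miR408 is a copper-responsive miRNA that targets plantacyanin and laccase transcripts in other plants. PC-3p-859_3455 began with all 18 bases of ppt-MIR529d-p3_2ss10TC17TG. The shared run is in capitals below.
PC-3p-66695_67: TGCACTGCCTTTTTCCTGGCTt
ath-miR408-3p_L-1R+1_2ss12CT15CT: TGCACTGCCTTTTTCCTGGCT
PC-5p-52165_86: ACGGGGAAAAGGCAGGGCatg
ptc-MIR408-p5_2ss12CA19AG: aagACGGGGAAAAGGCAGGGC
PC-3p-859_3455: TGTGCTCTCCCTCTTCGTcag
ppt-MIR529d-p3_2ss10TC17TG: TGTGCTCTCCCTCTTCGT

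The most abundant of the 22, PC-5p-97_25693, was identical to aqc-miR535_R-1 at 17 of 21 positions. The sequences are set together here with the differing bases in capitals.
PC-5p-97_25693: tgacGGAgagagagagcacAc
aqc-miR535_R-1: tgacAACgagagagagcacGc
From aqc-miR535_R-1 to PC-5p-97_25693 the differences were A5G, A6G, C7A and G20A, counted from the 5′ end, and the first 3 lie in the seed. The partner arm PC-3p-859_3455 also paired with aqc-miR535_R-1, at 17 bases with 3 mismatches. In other plants miR529 and the related miR156 guide cleavage of SPL transcripts, which encode SQUAMOSA PROMOTER BINDING PROTEIN-LIKE factors of phase change and flowering. aqc-miR535_R-1 had normalized read counts of 48.4 and 12.7 in root and was listed at 0 in all fruit, flower and leaf libraries, whereas PC-5p-97_25693 was 2253 or more in every library. For the other 18 sequences no entry outside the 22 shared a seed or a run of at least 15 bases.

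The miR408-like arm had near-identical entries whose values differed between the leaf libraries. Whether reads were divided among these entries was not tested. Together with the PC entry, a pair of 22-nt entries named miR408 differ from it at 1 and 2 positions, in capitals here.
PC-3p-66695_67: tgcactgcctTtttcctggctT
mtr-miR408-3p_L-1R+2_1ss15CT: tgcactgcctCtttcctggctt
osa-miR408-3p_L-1R+2_1ss15CT: tgcactgcctCtttcctggctC
PC-3p-66695_67 was 117 in leaf 1 and 0 in leaf 2 and in the other 6 libraries. mtr-miR408-3p_L-1R+2_1ss15CT was the reverse, at 0 in leaf 1 and 74.2 in leaf 2, and osa-miR408-3p_L-1R+2_1ss15CT was 1.05 in leaf 1 and 69.8 in leaf 2. The 21-nt ath-miR408-3p_L-1R+1_2ss12CT15CT was 624 and 404 in leaf. The 4 forms summed to 742 and 548 in leaf, against 0 and 15.7 in fruit, 9.48 and 0 in root, and 2.16 and 26.8 in flower. The sum was higher in both leaf libraries than in any other library, while single forms appeared in 1 leaf library and not in the other, so the value of PC-3p-66695_67 by itself is uncertain. Whether the miR408-like PC entries and the named forms come from the same hairpin was not tested. PC-5p-52165_86 is given with fruit and flower, and ptc-MIR408-p5_2ss12CA19AG appeared in leaf 1 alone, at 21.

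The lengths of the 22 fell in a narrow range. There were 15 sequences of 21 nt, 5 of 22 nt and 2 of 24 nt, and 20 of the 22 (90.9%) lay between 20 and 22 nt. In that range lay 74.6% of the 134 known mature miRNAs and 38.6% of the 114 new arms of known hairpins. None of the 22 was 18 or 19 nt long, against 28 known mature miRNAs and 64 new arms. The 24-nt members were PC-3p-33783_132 and PC-5p-384842_8, the size made by DICER-LIKE3 in plants. Of the 22, 12 were from the 5p arm and 10 from the 3p arm.

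**Figure D1:**
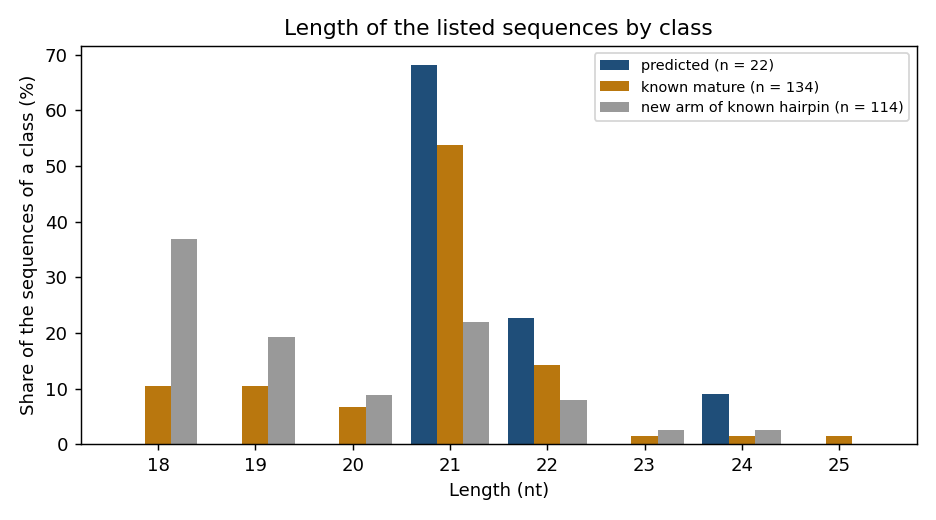
Length in nt on the x axis against the share of the sequences of a class in percent, for 22 predicted, 134 known mature and 114 new-arm sequences. The predicted sequences stand at 21, 22 and 24 nt, while new arms are most frequent at 18 nt.

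A 5′ T was less frequent among the 22 than among known mature miRNAs, as a description of these sequences with no test. It began 9 of the 22 (40.9%), 86 of 134 known mature miRNAs (64.2%) and 49 of 114 new arms (43%). On the 5p arm 6 of 12 began with T, and on the 3p arm 3 of 10 began with T and 5 with C. Among the arms with the higher mean in the 9 pairs, 4 began with T and 5 with C, and among those with the lower mean 3 began with T.

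The libraries differed in depth and in how well replicates matched. The deposited values are normalized read counts whose formula is not given in the sources used here, and depth was estimated by taking as 1 read the largest step of which at least 65% of a library's values were whole multiples. Between 92% and 97% of the values were whole or half-step multiples, so a read may be worth less than this step, and implied reads, depths and floors are estimates. The implied depth counts the reads of the 270 listed sequences, not all reads of a library. It ran from 73898 reads in root 2 to 724509 in flower 2. A value of 3 reads, the limit that a count of 0 allows, ran from 1.3 in flower 1 to 7.62 in root 2. The summed value per library ran from 179334 in fruit 1 to 536568 in flower 2. For members with a tissue mean of at least 10 and both libraries above 0, the median fold between replicates was 1.73 in fruit, 2.32 in root, 2.89 in flower and 2.12 in leaf. It reached 214 in root, for PC-3p-1283_2426, and 17.6 in flower, for PC-3p-122_21043. Floors cover counting error only.

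Summed as a class the 22 were abundant, and PC-5p-97_25693 alone made up 38.4% of their mean total. They held 6.63% of the mean profile over the libraries with 22 sequences, whereas the 114 new arms held 3.23% and the known miRNAs 90.1%. The median of the mean values was 53.6 for the 22, 28.1 for known mature miRNAs and 5.17 for new arms. Of the 22, 13 were above 0 in all 8 libraries (59.1%), against 36.6% of the known mature miRNAs and 10.5% of the new arms. The known mature entries include near-identical forms of the same miRNA, as for miR408, and how this bears on these values was not tested.

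The share of a library held by the 22 was highest in leaf. It was 8.91% and 6.63% in fruit, 6.16% and 4.87% in root, 4.91% and 3.73% in flower, and 9.75% and 11.3% in leaf. The leaf libraries were above all others, and fruit and root did not overlap. The mean share was 7.77 ± 1.61% in fruit, 5.51 ± 0.91% in root, 4.32 ± 0.84% in flower and 10.5 ± 1.12% in leaf (SD, n = 2). Without PC-5p-97_25693 fruit and leaf overlapped, with 6.49 ± 1.64% in fruit, 2.25 ± 0.05% in root, 2.996 ± 0.76% in flower and 5.93 ± 1.08% in leaf (SD, n = 2). The 4 members with the highest means, PC-5p-97_25693, PC-3p-96_26140, PC-3p-122_21043 and PC-3p-503_5584, made up between 64.9% of the members' total in fruit 1 and 93.5% in flower 1.

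**Figure D2:**
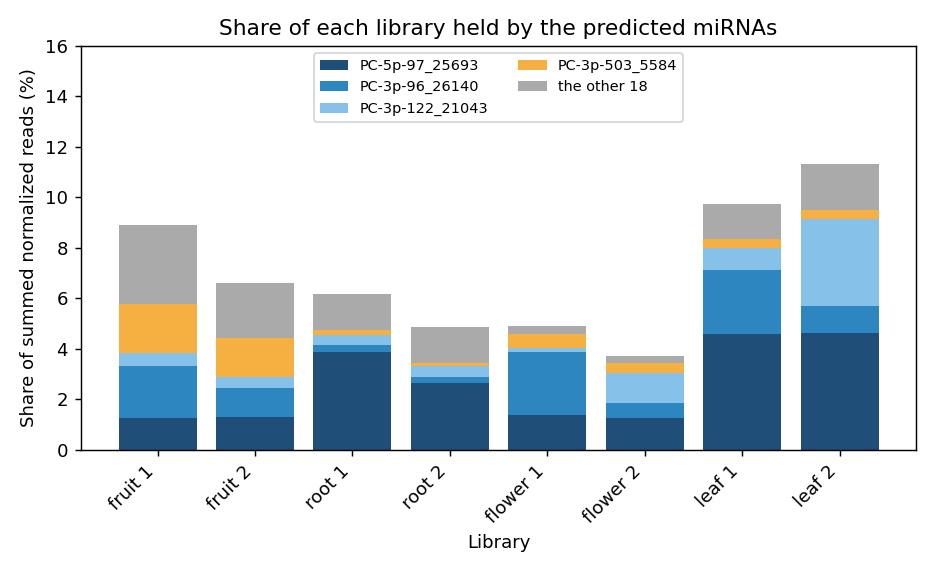
Share of the summed normalized reads of each library held by the predicted miRNAs, in percent, stacked by the 4 most abundant members and the other 18. The leaf bars reach 9.75% and 11.3% and the flower bars 4.91% and 3.73%, and PC-5p-97_25693 is the widest band in both root and both leaf libraries.

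The members spanned a wide range of levels. Their means over the 8 libraries ran from 1.11 for PC-5p-384842_8 to 6629 for PC-5p-97_25693, which ranked 8 among the 270 sequences. PC-3p-96_26140 ranked 11, PC-3p-122_21043 ranked 15 and PC-3p-503_5584 ranked 23. A mean of at least 100 was reached by 10 members, and 8 had a mean below 20.

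**Figure D3:**
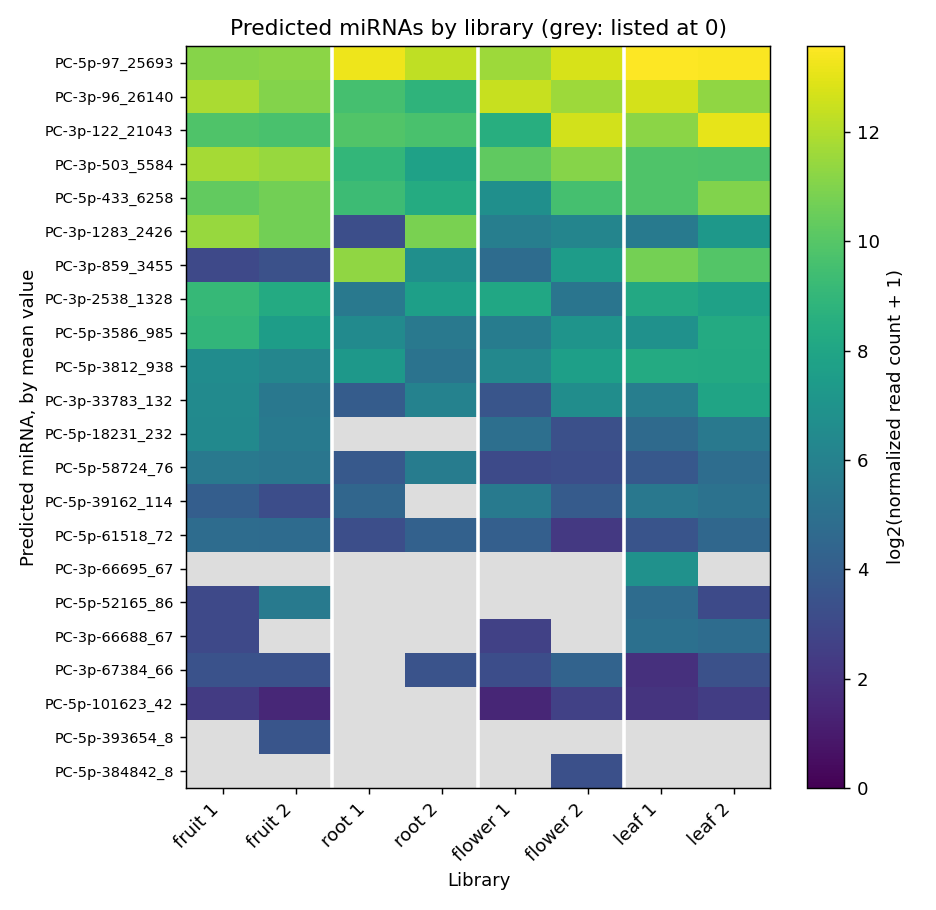
Normalized read count on the log2(value + 1) scale for the 22 predicted miRNAs (down the page, by mean value) in the 8 libraries, with grey for values listed at 0. The upper rows are above 0 in every library, and grey cells are most frequent in the root columns, where 8 of 22 members are at 0 in each library.

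Strand preference differed between the 9 pairs. The 3p arm was the more abundant on average in 7 pairs and the 5p arm in 2. One of the 7 rested on leaf 1 alone, where PC-3p-66695_67 had its only value above 0, while PC-5p-52165_86 was the higher arm in 3 libraries. In another of the 7, PC-5p-3812_938 and PC-3p-2538_1328 were each the higher arm in 4 libraries. The same arm was higher in all 8 libraries in 3 pairs. PC-3p-96_26140 exceeded PC-5p-39162_114 between 35.5 and 256 times in the 7 libraries where both were above 0, and PC-5p-39162_114 was listed at 0 in root 2. PC-3p-503_5584 exceeded PC-5p-3586_985 by 2.87 to 24.2 times. PC-5p-97_25693 exceeded PC-3p-859_3455 everywhere, with a 3p to 5p ratio between 0.0031 and 0.265.

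The ratio of the arms also varied between libraries. For PC-3p-122_21043 over PC-5p-433_6258, the 3p to 5p ratio was 0.725 and 0.503 in fruit, 1.48 and 2.52 in root, 3.4 and 8.48 in flower, and 2.67 and 4.09 in leaf. The 5p arm was thus the higher one in both fruit libraries and the 3p arm in all 6 others. For PC-3p-859_3455 over PC-5p-97_25693 the ratio was 0.0031 and 0.0038 in fruit, 0.265 and 0.0214 in root, 0.00865 and 0.0262 in flower, and 0.141 and 0.0865 in leaf. Both fruit libraries were below all others. For PC-3p-1283_2426 over PC-5p-58724_76 it was 67.1 and 42 in fruit, 0.667 and 35.9 in root, 7.41 and 8.91 in flower, and 3.75 and 5.41 in leaf. The fruit libraries were above all others, and the root libraries lay on opposite sides of 1. For PC-3p-2538_1328 over PC-5p-3812_938 it was 5.64 and 4.2 in fruit, 0.29 and 5.64 in root, 3.51 and 0.19 in flower, and 0.946 and 0.728 in leaf, so replicates of root and of flower fell on opposite sides of 1.

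The ratio was tested for a tissue difference in the 5 pairs with both arms above 0 in every library. The exact permutation test asks how many arrangements of the 8 libraries in pairs give a spread of the log2 ratio within pairs as small as that within tissues. It has 105 arrangements, so its smallest p is 0.00952. It gave p = 0.0381 for PC-3p-122_21043 over PC-5p-433_6258, and a Benjamini-Hochberg adjusted permutation p of 0.19 over the 5 pairs. For PC-3p-859_3455 over PC-5p-97_25693 it gave an adjusted permutation p of 0.206, for PC-3p-503_5584 over PC-5p-3586_985 likewise 0.206, for PC-3p-1283_2426 over PC-5p-58724_76 0.512, and for PC-3p-2538_1328 over PC-5p-3812_938 0.695. No ratio passed at an adjusted p of 0.05 with all 8 libraries. When a library is left out, its tissue has 1 library and adds no spread to the test. Without root 2 the adjusted permutation p fell to 0.0238 for both PC-3p-859_3455 over PC-5p-97_25693 and PC-3p-1283_2426 over PC-5p-58724_76, and without flower 1 it was 0.0476 for PC-3p-122_21043 over PC-5p-433_6258.

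**Figure D4:**
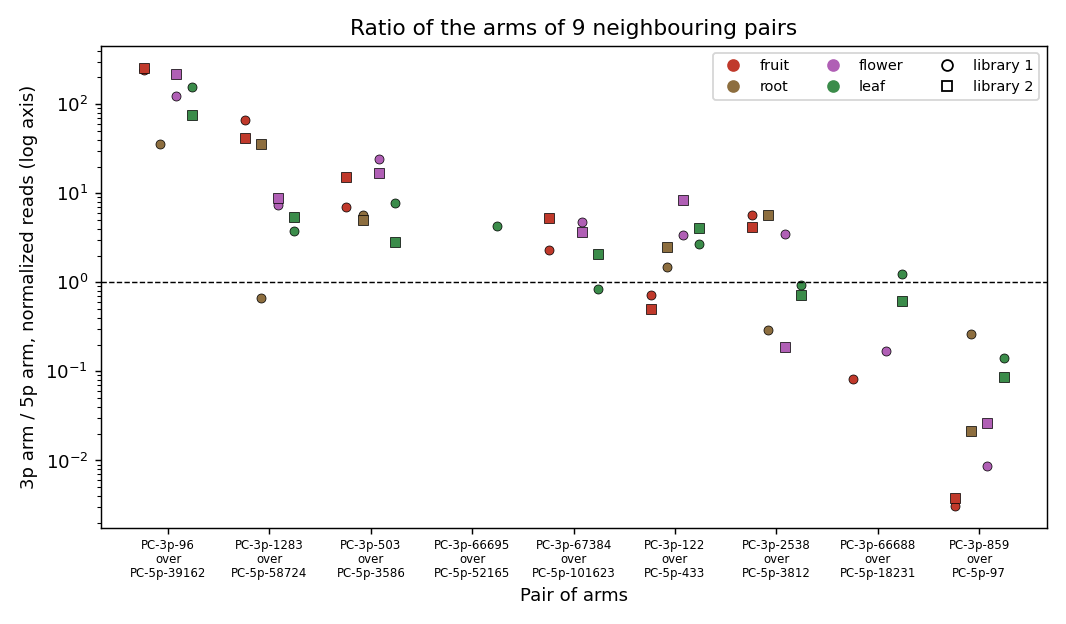
Ratio of the normalized reads of the 3p arm to those of the 5p arm on a log axis, for the 9 neighbouring pairs, with 1 point per library where both arms are above 0. The dashed line marks equal arms, and in the PC-3p-122 pair both fruit points, at 0.725 and 0.503, lie under it while the other 6 lie above it.

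Tissue differences in level were tested with limma on log2(value + 1), fitted on the 216 sequences that reached 1 in 2 or more libraries. Of the 22, 19 passed this filter, and PC-3p-66695_67, PC-5p-384842_8 and PC-5p-393654_8, each above 0 in 1 library, did not. A member that passes only through the tissue where it is high will tend to differ. Most members are neighbouring arms that may come from 1 hairpin, so the counts and medians of members below are not over independent sequences. Over all 4 tissues at once, the F test of limma called 0 of the 19 at an adjusted p under 0.05, while 4.63% of all 216 were called. At an unadjusted p under 0.05 there were 6 members, beside 31% of all 216, so the members' share was close to the background. Leaving out a root library raised the count of members called to 4 without root 1 and 2 without root 2, while the count over all sequences went up to 53 without root 1 and 43 without root 2, against 10 with all libraries. In each fit without a root library, root is 1 library that is assumed to vary like the other tissues.

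PC-5p-18231_232 was the only member called between tissues in the fit described above. It was 85.1 and 47 in fruit, 0 and 0 in root, 30.2 and 8.89 in flower, and 25.2 and 43.8 in leaf. The fruit libraries were above all others, and both root libraries were listed at 0. With a floor of 4.27 in root 1 and 7.62 in root 2, the fruit and leaf values all lay above what a count of 0 allows in root. It was higher in fruit than in root (adjusted p = 0.0444, limma) and lower in root than in leaf (adjusted p = 0.0411, limma). The fruit and root call was kept without root 1 or root 2 and lost without any of the other 6 libraries, at adjusted p = 0.0561 to 0.247 (limma). The root and leaf call was kept without root 1 or flower 1 and lost without any of the other 6, at adjusted p = 0.0571 to 0.239 (limma). Both calls were also lost with all 8 libraries under quantile normalization, without the filter, with library weights, a pseudocount of 10, equal library totals or a replicate block, and with the tissues compared alone. Its partner arm PC-3p-66688_67 had another pattern, at 6.98 and 0 in fruit, 0 and 0 in root, 5.19 and 0 in flower, and 31.5 and 26.7 in leaf. It was above the other tissues in both leaf libraries and was not called (adjusted p = 0.0704 for root and leaf, limma).

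Fruit was set against root first. Of the 19 tested members, 16 had a higher mean log2 value in fruit and 3 in root, beside 95 and 103 of all 216. The median log2 difference of the members was 1.66, against 0 over all 216. It was 1.38 with the 4 members listed at 0 in root set at the floor of 3 reads. Limma called 1 higher and 0 lower, beside 2.78% of all sequences. The libraries did not overlap, with fruit higher, for 9 members, beside 14.4% of all sequences. They did not overlap with fruit lower for PC-5p-97_25693 and PC-3p-859_3455, 2 members, beside 17.6%. Zeros in root were taken as listed. Among the 9, PC-5p-101623_42 and PC-5p-52165_86 each had a fruit value under the floor of 7.62 in root 2. PC-3p-503_5584 was 3481 and 2866 in fruit, 506 and 219 in root, 1234 and 2194 in flower, and 914 and 896 in leaf. Both fruit libraries were above and both root libraries below all others. By mean value it was 8.76-fold higher in fruit than in root. The fitted log2 difference was 3.24 ± 0.71 (SE), and it was not called (adjusted p = 0.0612, limma). Leaving out a root library gave adjusted p = 0.0264 without root 1 and 0.0694 without root 2 (limma), each with 1 root library. Its partner PC-5p-3586_985 was 497 and 189 in fruit, 89.6 and 43.2 in root, 51 and 129 in flower, and 117 and 312 in leaf, with fruit and root not overlapping (adjusted p = 0.318, limma).

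PC-3p-1283_2426 had the widest spread between replicates. It was 2905 and 1625 in fruit, 8.54 and 1825 in root, 54.4 and 72.6 in flower, and 47.2 and 148 in leaf. Root 2 lay with fruit and root 1 below every other library, at 6 implied reads in root 1 and 718 in root 2. By mean value fruit was 35.7-fold higher than flower, with a fitted log2 difference of 5.09 ± 2.27 (SE, limma adjusted p = 0.351). Leaving out either root library brought the fruit and flower difference to adjusted p = 0.0245 without root 1 and 0.0253 without root 2 (limma). Its differences from root followed which of the root libraries was kept and are not read further. Its partner PC-5p-58724_76 ran from 7.35 in flower 1 to 50.8 in root 2, with means of 41 in fruit, 31.8 in root, 7.75 in flower and 20 in leaf.

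Between fruit and flower, 11 of the 19 tested members were higher in fruit and 8 lower, beside 86 and 117 of all 216. When the values were scaled to equal library totals the split was 16 and 3, beside 110 and 92. The summed value of flower 2 was 536568, against 224292 in flower 1. The median log2 difference of the members was 0.85, against -0.39 over all 216. Limma called 0 of the 19, beside 2.31% of all sequences, and 1 had an unadjusted p under 0.05, beside 16.2% of all sequences. This was PC-5p-52165_86, at 6.98 and 46.1 in fruit, 0 and 0 in root, 0 and 0 in flower, and 27.3 and 7.42 in leaf. The libraries of 9 members did not overlap with fruit higher, beside 16.7% of all sequences, and those of 2, the same pair PC-5p-97_25693 and PC-3p-859_3455, with fruit lower, beside 29.2%.

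The pair whose 5p arm is near miR535 was low in fruit. PC-5p-97_25693 was 2253 and 2424 in fruit, 9794 and 4983 in root, 3097 and 6837 in flower, and 12229 and 11412 in leaf. Both leaf libraries were above and both fruit libraries below all others. By mean value it was 5.06-fold lower in fruit than in leaf, with a fitted log2 difference of -2.34 ± 0.68 (SE, limma adjusted p = 0.109). The partner PC-3p-859_3455 was 6.98 and 9.22 in fruit, 2598 and 107 in root, 26.8 and 179 in flower, and 1724 and 988 in leaf. Fruit held 5 and 10 implied reads of it, and every other library held more. By mean value it was 167-fold lower in fruit than in leaf. The fitted log2 difference was -7.18 ± 1.65 (SE), and it was not called (adjusted p = 0.0687, limma). Over the alternatives its limma adjusted p ran from 0.00478 with library weights to 0.322 without leaf 1. It was also under 0.05 with the tissues alone (0.00789), without root 1 (0.0164), without root 2 (0.0183) and with equal library totals (0.0473), and was 0.12 with the replicate block.

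In all, 10 of the 19 were higher in fruit than in leaf and 9 lower, beside 90 and 108 of all 216. The median log2 difference was 0.07 for the members, against -0.03 over all 216. Limma called 0, beside 3.7% of all sequences, and 4 had an unadjusted p under 0.05, beside 19% of all sequences. A fit of fruit and leaf alone called 5 of the members and 47 of all sequences. Of the 5, PC-3p-1283_2426 and PC-3p-503_5584 were higher in fruit, and PC-5p-97_25693, PC-3p-859_3455 and PC-5p-3812_938 lower. The libraries did not overlap for 7 members with fruit higher, beside 20.4% of all sequences, and for 6 with fruit lower, beside 32.4%. PC-5p-3812_938 was 96.3 and 74.7 in fruit, 152 and 35.6 in root, 78.6 and 199 in flower, and 310.3 and 299.8 in leaf, where both libraries were above all others.

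**Figure D5:**
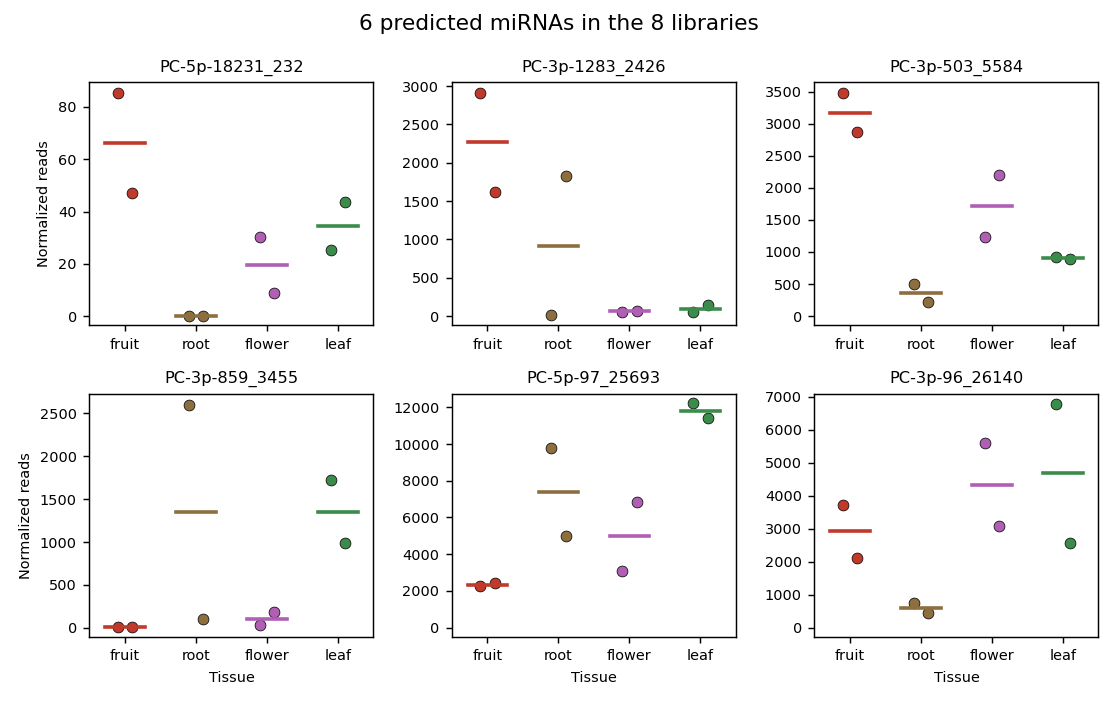
Normalized reads of 6 predicted miRNAs by tissue, with 1 point per library and a bar for the mean of the 2 libraries, each panel on its own linear axis. PC-5p-18231_232 lies at 0 in both root libraries, PC-3p-859_3455 lies at 6.98 and 9.22 in fruit, and the root points of PC-3p-1283_2426 are at 8.54 and 1825.

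Most members were lower in root than in leaf. Of the 19 tested, 17 were lower in root and 2 higher, beside 107 and 96 of all 216. The median log2 difference of the members was -1.6, against 0 over all 216, or -1.44 with members listed at 0 in root at the floor. The split was also 17 and 2 under quantile normalization, beside 104 and 112 of all 216. With equal library totals it was again 17 and 2, beside 105 and 98. The libraries did not overlap, with root lower, for 13 members, beside 25.5% of all sequences, and with root higher for 0, beside 16.2%. Among the 13, PC-5p-101623_42 and PC-5p-52165_86 were at 0 in root and each had a leaf value under the floor of 7.62 in root 2. Limma called 1 lower and 0 higher, beside 8.33% of all sequences, and 5 had an unadjusted p under 0.05, beside 21.8%. Both root libraries had 14 members above 0, at implied depths of 178083 reads in root 1 and 73898 in root 2. Fruit 1 had 19 members above 0 at 128476 reads. Whether depth bears on the values in root was not tested. PC-3p-96_26140 was 3710.2 and 2129 in fruit, 758 and 455 in root, 5610.4 and 3071 in flower, and 6771 and 2583 in leaf. Both root libraries were below all others. By mean value it was 7.71-fold lower in root than in leaf, with a fitted log2 difference of -2.83 ± 0.78 (SE, limma adjusted p = 0.0694). Its partner PC-5p-39162_114 was 15.4 and 8.3 in fruit, 21.3 and 0 in root, 45.8 and 14.1 in flower, and 43 and 34.1 in leaf. Without root 1 limma called 3 members between root and leaf, PC-5p-18231_232 and PC-5p-39162_114 lower in root and PC-3p-1283_2426 higher, while 44 of all sequences were called and root was root 2 alone.

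Between root and flower limma called 0 of the 19, beside 2.78% of all sequences, and 4 had an unadjusted p under 0.05, beside 16.2%. There were 6 members higher in root and 12 lower, beside 105 and 104 of all 216. With equal library totals the members split 9 and 9, beside 116 and 92. The median log2 difference of the members was -0.38, or -0.12 with zeros at the floor, against 0 over all 216. Non-overlapping libraries were higher in root for 1 member, PC-5p-58724_76, beside 13.9% of all sequences. They were lower in root for 4, PC-5p-101623_42, PC-3p-96_26140, PC-3p-503_5584 and PC-5p-18231_232, beside 22.2%. Of these, PC-5p-101623_42 was at 0 in root and under the floor of 7.62 in root 2 in both flower libraries. Without root 1 limma called PC-3p-1283_2426 and PC-3p-503_5584, 2 members, and 24 of all sequences, with root 2 as the only root library. With both root libraries the adjusted p was 0.81 for PC-3p-1283_2426 and 0.153 for PC-3p-503_5584 (limma).

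Flower was lower than leaf for 17 of the 19 tested members and higher for 2, beside 105 and 103 of all 216. The median log2 difference was -1.23 for the members, against 0 over all 216. Limma called 0, beside 2.31% of all sequences, and 3 had an unadjusted p under 0.05, beside 21.3%. The libraries did not overlap for 7 members with flower lower, beside 25% of all sequences, and for 1, PC-3p-503_5584, with flower higher, beside 27.8%. PC-3p-122_21043 was 921 and 822 in fruit, 949 and 813 in root, 363 and 6391 in flower, and 2406 and 8535 in leaf. Flower 2 lay among the leaf values and flower 1 below every other library. Its partner PC-5p-433_6258 was 1270.2 and 1635 in fruit, 640.2 and 323 in root, 107 and 753 in flower, and 901 and 2086 in leaf, lowest in the same flower 1. The adjusted p for flower and leaf was 0.595 for PC-3p-122_21043 and 0.28 for PC-5p-433_6258 (limma).

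Of the members not yet given by tissue, PC-3p-2538_1328 was 543 and 314 in fruit, 44.1 and 201 in root, 276 and 37.8 in flower, and 294 and 218 in leaf, with both fruit libraries above all others. PC-5p-61518_72 was 26.5 and 25.8 in fruit, 8.54 and 17.8 in root, 16 and 3.7 in flower, and 10.5 and 22.3 in leaf, again with fruit on top. It held 19 and 28 implied reads in fruit and 30 in leaf 2. The narrow gap between fruit 2 and leaf 2 could not be told from counting error. Neither was called in any pair (lowest adjusted p = 0.461 for PC-3p-2538_1328 and 0.582 for PC-5p-61518_72, limma). The 24-nt PC-3p-33783_132 ran from 10.8 in flower 1 to 243 in leaf 2 and overlapped in all 6 pairs of tissues. PC-3p-67384_66 stayed at or below 18.9 and PC-5p-101623_42 at or below 5.18. PC-5p-101623_42 was listed at 0 in both root libraries, whose floors of 4.27 and 7.62 lie close to or above its values elsewhere, so a lower level in root could not be told from counting error. PC-5p-384842_8 appeared only in flower 2, at 8.89, and PC-5p-393654_8 only in fruit 2, at 11.1, each with 12 implied reads.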

How the data were processed

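Libraries were prepared with TruSeq Small RNA kits, sequenced on a HiSeq instrument and filtered with ACGT101-miR, per the labels' protocols. The deposited values are the authors' normalized read counts per miRNA, treated as a signal, per the file headers. For the normalization formula, the genome build and program versions, nothing is stated here by the labels or headers. Of 304 entries, those with an identical sequence had equal values and were counted once, leaving 270. The members and lists were chosen with earlier results of these data known. The step taken as 1 read was the largest of which at least 65% of a library's values were whole multiples, within 0.01. Between 69.8% and 79.4% of the values of a library came out whole, so no count model was used.

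Values were fitted as log2(value + 1) with limma 3.58.1 in R 4.3.3, tissue as the only term, a mean-variance trend, and 4 residual and 2.43 prior degrees of freedom. A call is a Benjamini-Hochberg adjusted p under 0.05 over 216 sequences. P-values set differences between tissues against the spread between libraries of a tissue, which limma moderates over all sequences. That spread may be technical, because separate plants are not stated. Log2 differences understate changes of low values, and a tissue at 0 gets no fold. The pairing search, the fit and the permutation test were tested on simulated data. The test of arm ratios, the scaling to equal library totals and the comparison of the miR408 forms were chosen after seeing the data. Members with a mean of at least 100, a call, or a top tissue with a mean of at least 10 and libraries above all others are given in every library; other members were added where they are partner arms or the only member with a given count. Entries outside the 22 are named where they share a seed or a run of 15 bases with a member, and aqc-miR535_R-1 for its likeness to PC-5p-97_25693; other entries that met the pairing limit are not listed, so meeting it is not particular to the neighbouring arms.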

Additional observations from a re-analysis of the deposited data

How the results depend on the processing

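Each tissue has 2 libraries, so calls were few and depended on single ones, and depth limits members under about 8 normalized reads in root 2. The log2 differences followed for 13 members were the called ones and those between a member's tissues of highest and lowest mean. None changed sign in any alternative. They were picked as wide gaps in these same data, and many alternatives leave the estimate itself unchanged, so a kept sign was largely fixed in advance. Of 266 values 228 stayed on their side of the threshold, 26 lost a call, all of PC-5p-18231_232, and 12 gained one. Between fruit and root 1 member was called, and 0 with a pseudocount of 10, without the filter, with quantile normalization, library weights, equal library totals, or the tissues alone. Between root and leaf 1 was called, and 0 without the filter, with quantile normalization, library weights, equal totals, or the tissues alone; a pseudocount of 10 called 1, PC-3p-66688_67 in place of PC-5p-18231_232. Between fruit and leaf 0 were called, but 4 with library weights, 5 with the tissues alone and 1 with equal totals, in fits that called 44, 47 and 9 of all sequences, against 8. The F test called 0, but 1 with a pseudocount of 0.5, without the trend, or with library weights. Those fits called 27, 12 and 35 of all sequences, against 10. Leaving out 1 library gave 0 to 3 calls for fruit and root, 0 to 1 for fruit and flower, 0 to 2 for fruit and leaf, 0 to 2 for root and flower, 0 to 3 for root and leaf, 0 for flower and leaf, and 0 to 4 for the F test. Each rise over the count with all libraries came from leaving out a root library. Every such fit also called more of all sequences, so the rises were not particular to the predicted miRNAs. Apart from the alternatives' own construction the causes were not tested. Adjusted permutation p-values of the arm ratios ranged, leaving out 1 library, from 0.0476 to 0.349 for PC-3p-122_21043, 0.0238 to 0.857 for PC-3p-1283_2426, 0.0238 to 0.429 for PC-3p-859_3455, 0.167 to 0.44 for PC-3p-503_5584 and 0.352 to 0.857 for PC-3p-2538_1328. Without PC-5p-97_25693 the share of the predicted miRNAs was 2.25% in root, 2.996% in flower and 5.93% in leaf. Quantile normalization moved the median of all sequences by 0.48 and equal totals by 0.45 between fruit and flower. With the replicate block 0 members were called in every comparison, which ends both calls of PC-5p-18231_232, at adjusted p = 0.114 for fruit and root and 0.0737 for root and leaf (limma). Deviations of equal replicate numbers correlated between tissues from -0.197 to 0.238, so the numbers were not taken to pair the libraries.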
